A study of Gallus gallus with 3 samples.

Results

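Occludin and its relatives, the zonula occludens scaffolds, cingulin and the E-cadherin complex were described from RNA sequencing of 3 pools of chicken jejunal mucosa, taken from breeder hens of the Leuang Hang Kao genotype. The genes were taken by symbol, from a list chosen with earlier results of these data known: OCLN, MARVELD2, MARVELD3, TJP1, TJP3, F11R, CGN, CDH1 and CTNNB1. Of these 9 genes, 8 had a row among the 15675 genes with values. F11R, the junctional adhesion molecule A gene, was matched neither by symbol nor by gene ID and was not analysed here. The study caged 28-week-old hens singly and set an arm held at 36 °C for 6 h against a thermoneutral arm at 23 °C, with 25 hens per arm. Jejunal mucosa of 12 hens per arm was combined into 3 RNA pools of 4 hens each. The libraries used are the 3 thermoneutral control pools, named pools 1, 2 and 3. The arm held at 36 °C was not analysed here. With 1 group there is no comparison between conditions, so what follows gives levels and the spread between pools, which is the spread of pooled RNA and not of single hens.

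Tight junctions seal the gap between neighbouring epithelial cells and set what passes between them. Their membrane strands, made of claudins and of MARVEL-domain proteins such as occludin, are held to the actin cytoskeleton by scaffold proteins of the zonula occludens family and by cingulin. Below them lies the adherens junction, where E-cadherin binds its counterpart on the next cell and is tied to actin inside the cell through beta-catenin and alpha-catenin. These roles are known mainly from mammalian cells and are given here as background.

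Values are FPKM, in which fragments are divided by gene length and by library size, which allows levels of different genes to be compared. Across pools the genes were compared as log2(FPKM + 1), and a range is the highest pool minus the lowest on that scale. The depth of the libraries is unknown, so no interval for counting error is given. The presence of epithelium, but not the gut segment of the label, was borne out by the pan-epithelial gene EPCAM, at 2061 ± 147 FPKM (SD, n = 3). The microvillus gene VIL1 was at 617 ± 96.1 FPKM. KRT19, a keratin of the same marker list, was listed at 0 in pools 2 and 3 and had 0.06 FPKM in pool 1. In bulk RNA, fewer cells of a type and less RNA per cell cannot be told apart.

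The pools differed in markers of cell types, and these values belong beside every difference between pools given here. For all 12 smooth muscle markers and all 12 fibroblast and stroma markers, pool 3 was the highest and pool 1 the lowest, a pattern shared by 39.2% of expressed genes, those whose mean reached 1 FPKM. Their summed levels were 524.25, 933.13 and 1509.82 FPKM for smooth muscle and 249.68, 469.09 and 763.1 FPKM for stroma in pools 1, 2 and 3. All 13 enterocyte markers were lowest in pool 3, against 27.6% of expressed genes, with summed levels of 65285.5, 57291 and 22355.9 FPKM. Of the 10 expressed whole epithelium markers, 6 had their highest value in pool 1, and 6 their lowest in pool 3, against 24.8% and 27.6% of expressed genes. Lowest in pool 1 were all 9 expressed crypt and proliferating markers and 10 of 12 T and NK lymphocyte markers, but 1 of 6 goblet markers. The share of expressed genes lowest there was 51.6%. The part of these cell types in the differences between pools was not tested.

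The E-cadherin complex held the highest levels of the measured genes. CTNNB1, which encodes beta-catenin, the link from cadherins to alpha-catenin and also the effector of WNT signalling, was at 151.19, 151.78 and 177 FPKM in pools 1, 2 and 3. Pools 1 and 2 were nearly equal and pool 3 stood above both. CDH1, which encodes E-cadherin, was at 155.47, 134.37 and 119 FPKM. Pool 1 was its highest and pool 3, the highest for CTNNB1, its lowest. The means were 160.0 ± 14.7 FPKM for CTNNB1 and 136 ± 18.3 FPKM for CDH1, above 95.4% and 94.7% of all genes.

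The scaffolds of the tight junction spanned a wide range of levels. CGN, cingulin, which ties the junction to actomyosin, was at 76.71, 61.15 and 61.77 FPKM in pools 1, 2 and 3, with pool 1 above the other pools. TJP3, which encodes ZO-3, was at 42.94, 24.6 and 45.39 FPKM. Pools 1 and 3 were close together and pool 2 stood apart on the low side. TJP1, which encodes ZO-1, the scaffold that binds occludin and claudins, was at 7.96, 9.7 and 11.45 FPKM. Pool 1 was its lowest and pool 3 its highest, as for the muscle and stroma markers, the epithelial markers KRT8 and KRT18, and 39.2% of expressed genes. The means were 66.5 ± 8.81 FPKM for CGN, 37.6 ± 11.4 FPKM for TJP3 and 9.70 ± 1.745 FPKM for TJP1. ZO-1 is the zonula occludens protein most often used to mark tight junctions. Its transcript lay below the median of 12.7 FPKM over the 11570 expressed genes, and above 57.6% of all genes.

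The occludin family also covered a range of levels. OCLN, which encodes occludin, was at 32.01, 23.95 and 23.99 FPKM in pools 1, 2 and 3. Pool 1 stood above the others, which were nearly equal. MARVELD2, which encodes tricellulin, a protein concentrated where the corners of neighbouring cells meet, was at 6.36, 5.87 and 6.06 FPKM. It had the lowest mean of the 8 genes, 6.10 ± 0.247 FPKM, and the smallest spread. The row labelled MARVELD3 was at 44.03, 43.04 and 31.97 FPKM, with pool 3 below the other pools.

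The identity of the row labelled MARVELD3 is uncertain. MARVELD3 encodes another MARVEL-domain protein of the tight junction. The rows of the table run in order of NCBI gene ID, with 99.7% of 13837 neighbouring rows in ascending order by the IDs of the RefSeq gene table of assembly GRCg7b. The other 7 genes lie where their IDs place them. The row labelled MARVELD3, whose ID in that assembly is 415883, instead lies between KDSR (420902) and PHLPP1 (420904). The gene LOC420903 (420903) lies next to PHLPP1 on chromosome 2 of that assembly. In the same assembly, MARVELD3 lies between PHLPP2 and TAT. The deposited table has a row named MRVLDC3 at that place, at 17.83, 15.82 and 13.68 FPKM in pools 1, 2 and 3. By ID order, the row labelled MARVELD3 thus stands where LOC420903 would lie, and MRVLDC3 stands where the gene now called MARVELD3 would lie. Row order was the only evidence and sequences were not compared, so the identity of these rows was not settled here. Their means were 39.7 ± 6.70 FPKM for the row labelled MARVELD3 and 15.8 ± 2.08 FPKM for MRVLDC3, and both had their highest value in pool 1 and their lowest in pool 3.

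**Figure D1:**
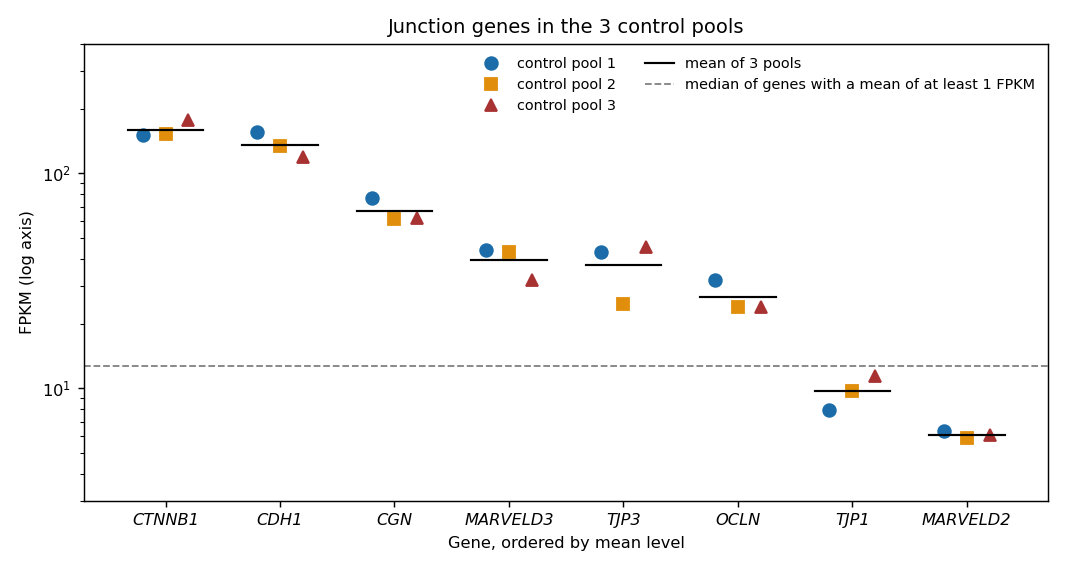
FPKM on a log axis for the 8 measured genes, ordered by mean level, with 1 symbol per control pool and a bar at the mean. CTNNB1 and CDH1 lie above 100 FPKM in every pool, while TJP1 and MARVELD2 lie below the dashed line, the median of 12.7 FPKM over expressed genes.

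By mean log2(FPKM + 1), the order of levels was CTNNB1, CDH1, CGN, the row labelled MARVELD3, TJP3, OCLN, TJP1 and MARVELD2. Of the 7 steps between neighbours in this order, 5 kept their direction in every pool. The difference between CTNNB1 and CDH1, 0.23 ± 0.31 on the log2 scale, was smaller than its SD, and CDH1 was the higher of the pair in pool 1. The row labelled MARVELD3 and TJP3 likewise differed by less than their spread, at 0.11 ± 0.64. TJP3 exceeded OCLN in every pool, but by 0.45 ± 0.43, about the size of its SD. With the row labelled MARVELD3 in the order, the widest step lay between OCLN and TJP1, at 1.37 ± 0.46. With 3 pools, a two-sided exact permutation test that flips signs gives no p below 0.25, so no difference between genes could pass a threshold of 0.05. Adjusted over the 7 steps by the Benjamini-Hochberg method, the smallest exact permutation p was 0.35. The order was taken from these same pools, so each mean step is positive by construction and the test gives the order no support. MRVLDC3 lies between OCLN and TJP1 in level, so with it in place of the row labelled MARVELD3 that step is divided and the widest is the one from CDH1 to CGN, at 1.02 ± 0.09. In that order, 6 of the 7 steps kept their direction.

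Within families, levels were uneven. TJP1 minus TJP3 was -1.82 ± 0.52 on the log2(FPKM + 1) scale, below 0 in 3 of 3 pools (SD, n = 3). The FPKM of TJP1 was 0.185, 0.394 and 0.252 of that of TJP3 in pools 1, 2 and 3. The ratio was highest in pool 2, where TJP3 was lowest. CGN exceeded TJP1 by 2.66 ± 0.41, also in 3 of 3 pools.

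OCLN exceeded MARVELD2 by 1.95 ± 0.19 on the log2(FPKM + 1) scale, with FPKM ratios of 5.03, 4.08 and 3.96 in pools 1, 2 and 3. OCLN minus the row labelled MARVELD3 was -0.56 ± 0.23, below 0 in 3 of 3 pools. Against MRVLDC3 the difference was 0.72, so the order of these genes turns with the choice of row. CGN exceeded its paralogue CGNL1, paracingulin, by 5.32 ± 0.63, and CGNL1 was at 0.27, 0.54 and 1.44 FPKM in pools 1, 2 and 3. CGN made up 98.8% ± 0.996 of their summed FPKM.

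Among cadherins, CDH17, the intestinal liver-intestine cadherin, stood above CDH1. CDH1 minus CDH17 was -0.84 ± 0.20 on the log2(FPKM + 1) scale, below 0 in 3 of 3 pools, with CDH17 at 243.5 ± 26.7 FPKM. CDH2, the neural and mesenchymal N-cadherin, was at 0.577 ± 0.259 FPKM, and CDH1 exceeded it by 6.45 ± 0.42. Among catenins, CTNNB1 and CTNNA1 were close in level. CTNNA1, which encodes alpha-catenin, was at 155.29, 147 and 143.25 FPKM in pools 1, 2 and 3, and CTNNB1 minus CTNNA1 was 0.10 ± 0.18, with a direction that differed between pools. CTNNB1 exceeded JUP, plakoglobin, a catenin shared with desmosomes, by 0.89 ± 0.18, and CTNND1, p120-catenin, which binds the membrane-near part of cadherins, by 0.80 ± 0.21. The 4 catenins summed to 492.4, 475.11 and 487.93 FPKM, a coefficient of variation of 1.85%, while the share of CTNNB1 was 30.7%, 31.9% and 36.3%. Of the 15 pairs measured, 13 kept 1 direction throughout the pools, and the exact sign-flip permutation p was 0.25 for each of these, or 0.288 after Benjamini-Hochberg adjustment over the 15 pairs. A further 3 listed pairs needed F11R and were not measured.

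**Figure D2:**
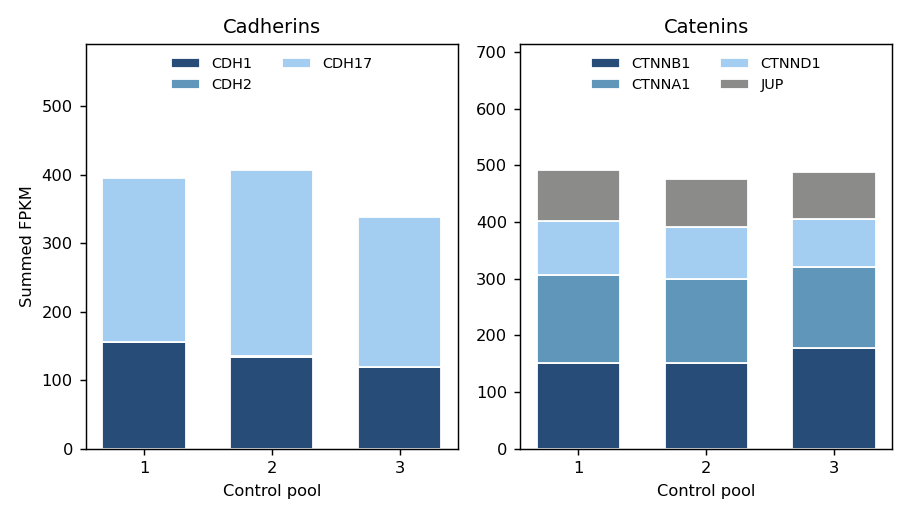
Stacked bars of FPKM in control pools 1, 2 and 3 for the cadherins and the catenins, each panel with its own axis from 0. CDH17 is the largest cadherin segment in every pool, CDH2 is too low to be seen, and the catenin sums lie between 475.11 and 492.4 FPKM.

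None of the 8 genes had a range between pools above 1 on the log2(FPKM + 1) scale, against 7.06% of all expressed genes. For 8 genes a count of 0 lies near that background. The median range was 0.39 for the 8 genes and 0.33 for expressed genes, and the median coefficient of variation was 15.2% for the 8 and 13.5% for expressed genes. TJP3 had the widest range, 0.86, and 10.7% of expressed genes had a wider one. MARVELD2 had the narrowest, 0.10, and 91.9% of expressed genes had a wider one. The ranges of the other 6 genes lay between 0.23 for CTNNB1 and 0.47 for TJP1. Leaving out 1 of 3 pools can only narrow a range, and no share over all genes is given for the values that follow. Without pool 2 the range of TJP3 was 0.078. Without pool 1 that of OCLN was 0.0023 and that of CGN 0.014. That of MARVELD2 was 0.039 without pool 1 and 0.060 without pool 2. Without pool 3 that of the row labelled MARVELD3 was 0.032 and that of CTNNB1 0.0056. The ranges of TJP1 and CDH1 were 0.22 and 0.17 without pool 1, and 0.26 and 0.21 without pool 3.

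The genes differed in which pool was highest. Percentages of all genes in this paragraph are over expressed genes. In pool 1, 5 of the 8 genes were highest, against 24.8% of all genes: OCLN, MARVELD2, the row labelled MARVELD3, CGN and CDH1. In pool 3, 3 genes were highest, against 52% of all genes: TJP1, TJP3 and CTNNB1. None was highest in pool 2, against 23.1% of all genes. In pool 2, 4 genes were lowest, OCLN, MARVELD2, TJP3 and CGN, against 20.8% of all genes. TJP1 and CTNNB1 were lowest in pool 1, as were 51.6% of all genes, and CDH1 and the row labelled MARVELD3 were lowest in pool 3, as were 27.6%. Taking both extremes, TJP1 and CTNNB1 are 2 of 8 genes with pool 3 highest and pool 1 lowest, against 39.2% of all genes, and CDH1 and the row labelled MARVELD3 are 2 of 8 with the reverse, against 16.9%. OCLN, CGN and CDH1 were highest in pool 1, and TJP1 and CTNNB1 in pool 3, under each of 3 other scalings. Under an equal sum, the median ratio and the epithelial marker factor, 25.4%, 38.3% and 9.05% of all genes were highest in pool 1. The shares highest in pool 3 were 53.9%, 39.9% and 76.2%. Some other places turned with the scaling. Divided by the epithelial marker factor, MARVELD2 was at 5.78, 5.84 and 6.79 in pools 1, 2 and 3. Its peak thus moved from pool 1 to pool 3, and its minimum from pool 2 to pool 1. The row labelled MARVELD3, at 39.98, 42.81 and 35.81 with this factor, peaked in pool 2 instead of pool 1. CTNNB1, nearly equal in pools 1 and 2, was lowest in pool 2 under the equal sum and the median ratio. OCLN and CGN, nearly equal in pools 2 and 3, were lowest in pool 3 under the median ratio. With FPKM rescaled by the median ratio over expressed genes, 5 genes were lowest in pool 3 and 2 in pool 2, against 39.2% and 22.9% of all genes, and TJP3 was highest in pool 1.

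**Figure D3:**
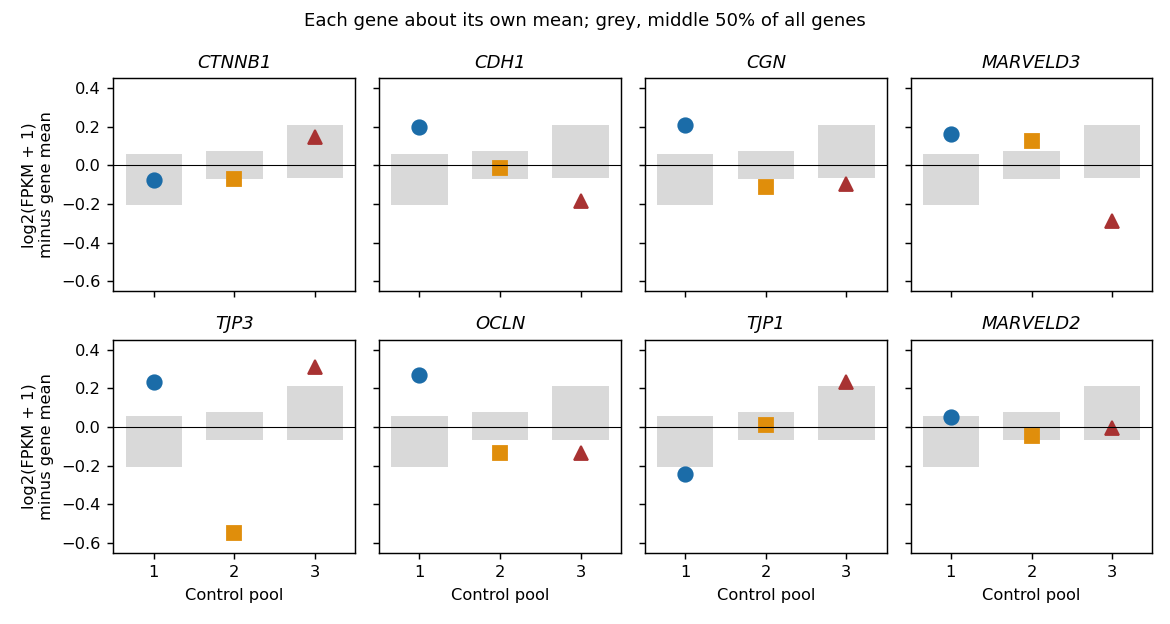
For each of the 8 genes, log2(FPKM + 1) in each control pool minus the mean of that gene over the 3 pools. Grey boxes span the interquartile range of expressed genes. OCLN, TJP3, CGN and CDH1 lie above the grey box in pool 1, while TJP1 and CTNNB1 lie below 0 there.

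OCLN and CGN had the most alike profiles. Centred on its own mean, OCLN was at 0.27, -0.14 and -0.13 and CGN at 0.21, -0.11 and -0.10 in pools 1, 2 and 3, so they differed by at most 0.06 in any pool. Of 8610 genes whose mean reached 5 FPKM, 77 lay as near to OCLN. The median profile of the 8 genes was 0.16, -0.08 and -0.07. Outside the 8, the nearest genes by the largest difference in any pool included TOE1, KLF8, UGDH and TBCA, each within 0.01 of it. With 3 pools such likeness is common: 177 of 8603 genes lay within 0.05 of that profile in every pool and 836 within 0.1.

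When FPKM were divided by a factor for the epithelial markers of each pool, some genes varied less and others more. The factor, the median ratio over the 10 expressed whole epithelium markers, none of them a junction gene described here, was 1.101, 1.01 and 0.893 in pools 1, 2 and 3. The 10 markers differed in direction: 6 peaked in pool 1, 1 in pool 2 and 3 in pool 3. From pool 1 to pool 3, KRT18 rose from 174.97 to 352.56 FPKM, while KRT20 fell from 1257.1 to 783.05 FPKM. The factor is thus a middle value of markers that disagree, not a course shared by all 10. The coefficient of variation of CDH1 was 3.27% with this scaling and 13.4% without it. It was 8.91% against 16.9% for the row labelled MARVELD3, 9.91% against 17.4% for OCLN, and 7.47% against 13.2% for CGN. The other 4 genes spread further. The coefficient of variation of TJP1 was 28.4% with the scaling and 18.0% without it, and that of CTNNB1 was 19.7% and 9.21%. Those of TJP3 and MARVELD2 were 34.7% and 9.25% with the scaling, and 30.2% and 4.05% without it. The coefficient of variation became smaller in 4 of these 8 genes, against 23.5% of expressed genes. The factor fell from pool 1 to pool 3, so dividing by it tends to narrow the spread of genes highest in pool 1. All 4 were among the genes highest in pool 1, so this count is not separate from the order of the pools. With this scaling TJP3 was at 38.995, 24.5 and 50.8 in pools 1, 2 and 3, a range of 1.03, the only one of the 8 above 1, against 10.97% of expressed genes with this scaling. The median coefficient of variation with it was 9.58% for the 8 genes and 19.1% for expressed genes.

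**Figure D4:**
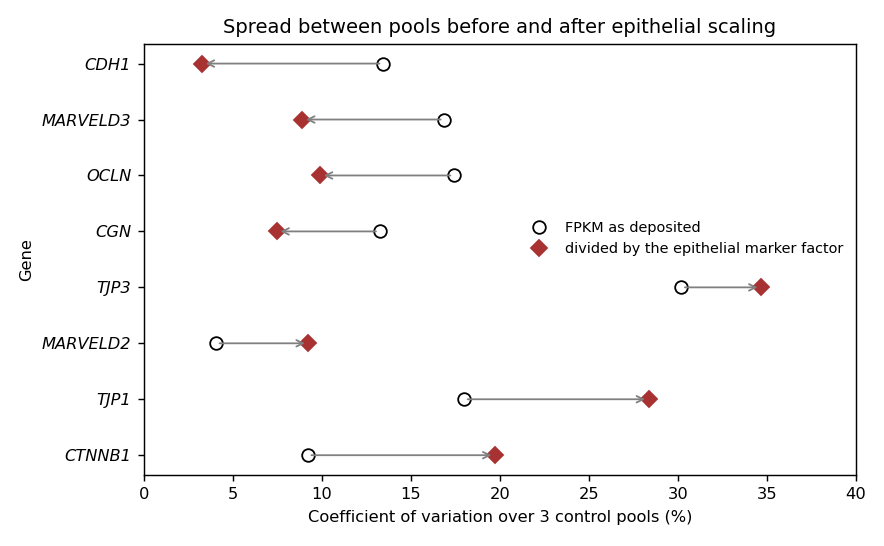
Coefficient of variation over the 3 control pools for each gene, as deposited (open circles) and after division by the epithelial marker factor (red diamonds), with arrows from the deposited to the scaled value. Arrows point left for CDH1, MARVELD3, OCLN and CGN and right for TJP3, MARVELD2, TJP1 and CTNNB1.

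The other genes of the junctions were taken from lists of known components and their relatives. Of 25 other tight junction scaffolds and receptors, 21 were matched and 18 expressed, with a median of 7.77 FPKM, against 38.7 FPKM for the 8 genes above and 12.7 FPKM for expressed genes. Among the highest were CXADR, the coxsackie and adenovirus receptor, at 125 ± 18.9 FPKM, the ZO-1 associated regulator YBX3 at 73.4 ± 13.2 and the immunoglobulin-like IGSF5 at 70.4 ± 16.3. The polarity scaffolds PARD3 and PATJ, at 7.51 ± 0.523 and 7.38 ± 0.644 FPKM, lay nearer to TJP1. A single gene of the 18 had a range above 1, against 7.06% of all expressed genes. It was JAM2, a junctional adhesion molecule of endothelium, at 3.25, 5.38 and 11.01 FPKM in pools 1, 2 and 3. Pool 3 was also the highest for all 9 expressed endothelial markers, for all 12 smooth muscle and all 12 stroma markers, and for 52% of all expressed genes. The part of these cell types in the range of JAM2 was not tested.

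Genes listed with the adherens junction were abundant. Of 16 listed, 13 were matched and 12 expressed, with a median of 59.4 FPKM. None had a range above 1, against 7.06% of all expressed genes. Of the listed genes, CDH17, a relative of CDH1, and CTNNA1 led, followed by CTNND1 at 91.2 ± 5.49 and JUP at 85.5 ± 3.903 FPKM. AFDN, which encodes afadin, the scaffold of nectins, was at 12.21, 11.95 and 12 FPKM, a range of 0.03. The widest range, 0.87, was that of the actin crosslinker ACTN1.

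Claudins, the strand-forming proteins beside occludin, reached higher levels than the occludin family, with a long tail of rows near 0. Of 22 listed, 15 were matched and 9 expressed, with a median of 48.3 FPKM, or 1.56 FPKM over all 15. The median of 48.3 FPKM is the value of CLDND1, a listed gene named for its claudin domain. CLDN2 was at 411 ± 38.5, CLDN10 at 267 ± 31.0, CLDN7 at 151 ± 9.91 and CLDN3 at 82.8 ± 7.51 FPKM, each above OCLN in every pool. CLDN15 had the widest range, 1.46, at 0.21, 2.13 and 2.33 FPKM in pools 1, 2 and 3.

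**Figure D5:**
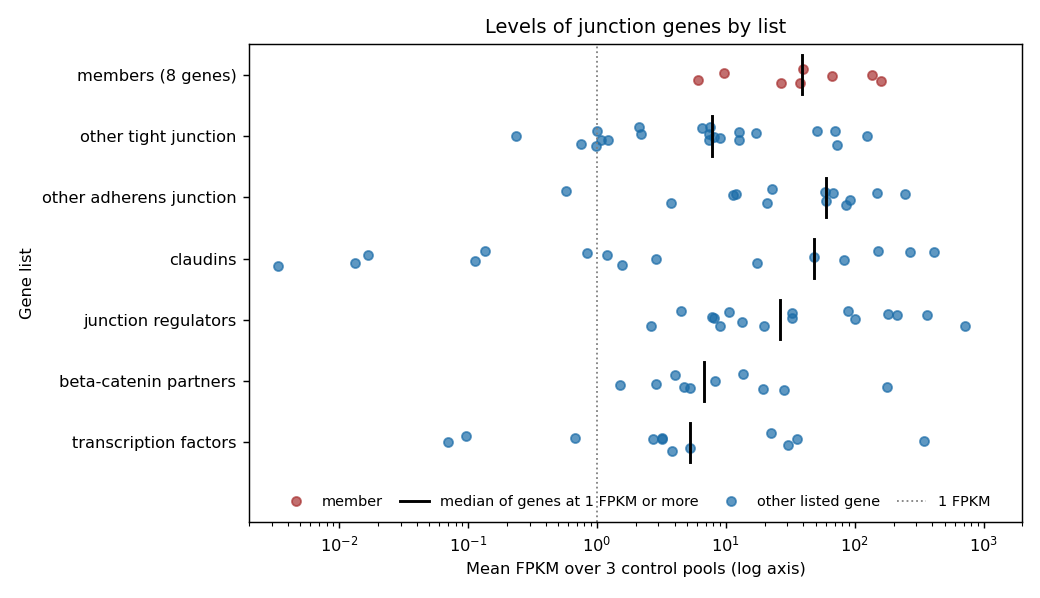
Mean FPKM over the 3 control pools on a log axis, 1 point per matched gene, by list, with vertical bars at the median of expressed genes. The 8 genes described above lie between 6.10 and 160.0 FPKM, while claudins reach from 0.00333 to 411 FPKM.

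Regulators of the junctional actin belt were led by small GTPases. RHOA, which drives actomyosin contraction, was at 723 ± 23.5 FPKM, RAC1 at 363 ± 8.25 and CDC42 at 213 ± 9.35, with EZR, ezrin, at 182 ± 19.8. Of 18 listed, 16 were matched and all 16 expressed, with a median of 26.2 FPKM. Of the 16, 2 had a range above 1, against 7.06% of all expressed genes. These were MYLK, the myosin light chain kinase, at 5.77, 13.22 and 21.35 FPKM in pools 1, 2 and 3, and MYH10, a non-muscle myosin, at 5.1, 9.84 and 16.65. MYLK is itself among the smooth muscle markers. Both genes had their highest value in pool 3 and their lowest in pool 1, as did those markers and 39.2% of all expressed genes.

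Genes that act on free beta-catenin were far below CTNNB1, with 1 exception. All 10 were matched, with a median of 6.78 FPKM and no range above 1, against 7.06% of all expressed genes. The exception was CSNK1A1, the kinase that primes beta-catenin for destruction, at 178 ± 25.6 FPKM. The scaffold AXIN1 was at 28.2 ± 2.57, the kinase GSK3B at 19.6 ± 1.79 and APC at 4.06 ± 0.3197 FPKM. Of the nuclear partners, TCF7L2 was at 13.5 ± 1.12 and LEF1 at 1.503 ± 0.544 FPKM. AXIN2, a target of WNT signalling, was at 2.08, 2.21 and 4.27 FPKM in pools 1, 2 and 3. Pool 3 was highest for it, for 6 of the 10 genes in all and for 52% of all expressed genes.

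Transcription factors known to act on CDH1 or on junction genes are grouped here as epithelial factors and repressors of CDH1. All 12 were matched and 9 expressed, with a median of 5.24 FPKM. The epithelial factors ELF3, KLF4 and OVOL2 were at 343 ± 60.5, 35.7 ± 7.21 and 30.3 ± 2.64 FPKM, and GRHL2 was at 3.81 ± 0.243. Of the 9 expressed genes, 3 had a range above 1, against 7.06% of all expressed genes, and all 3 were repressors of CDH1. SNAI2 was at 10.78, 20.13 and 35.91 FPKM, ZEB2 at 2.43, 4.44 and 8.84, and ZEB1 at 1.7, 2.92 and 4.98 in pools 1, 2 and 3. Pool 3 was their highest and pool 1 their lowest, as for all 12 stroma markers, all 12 smooth muscle markers and 39.2% of all expressed genes. The part of stroma or smooth muscle in these values was not tested. The epithelial factors GRHL2, GRHL3 and KLF5 had the same order with ranges of 0.13, 0.47 and 0.85. SNAI1 was at 0.19 FPKM or below in every pool, and TWIST1 was listed at 0 outside pool 2, where it had 0.21.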

How the data were processed

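RNA from 3 thermoneutral control pools was analysed. Per the labels' protocols, libraries were random-primed after a poly(A) or rRNA-depletion step. Build GRCg6a is named in the submitters' processing notes, with the tools HISAT2 2.0.1 and HTSeq 0.6.1, cutadapt 1.9.1 and DESeq2. Whether counting used strand is not given in the sources used here, so values of overlapping genes and paralogues are less certain. FPKM, per the file headers, were deposited for each pool and used unchanged. The authors also deposited read counts, best called estimated counts since 86.8% to 86.9% were whole within 1e-06. These did not follow the FPKM of their rows (Pearson's r across 15675 genes, which are not replicates, 0.009, 0.006 and 0.005 in pools 1, 2 and 3) and gave no expression value here. The table has 6 more value columns that no labelled sample matches, and they were left out.

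The members, lists and pairs were chosen with earlier results of these data known. Genes named in the text are, apart from some results not reported here, the members, both genes of each pair, the 4 highest and the widest-ranging gene of each list, and the genes nearest to the members' profile. Others, such as AFDN, PARD3, PATJ, APC, LEF1, GRHL2, ZEB1, ZEB2, GRHL3, KLF5, SNAI1, TWIST1, MYH10, EPCAM, VIL1 and KRT19, are list members named after their values were seen, as were MRVLDC3, MARVELD1 and OCEL1, which are in no list. Differences between genes within a pool were tested by exact permutation of signs, two-sided. The steps were tested on simulated data. The software was numpy 2.4.6 and pandas 2.3.3 under Python 3.11.15, with matplotlib 3.10.9 for figures. Alternatives were the pseudocount, the filter on low FPKM, 3 rescalings, the mean over a list's members, leaving out each pool and the MRVLDC3 row.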

Additional observations from a re-analysis of the deposited data

How the results depend on the processing

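No comparison between groups, paired or not, was possible because the labels give 1 group, and genes were paired only within pools. Of 311 recomputed values, 26 moved and 1 reversed. Some of the rest could not change, so the share that moved is no measure of stability. Every member's mean exceeds 5 FPKM, so the filters left the members' ranges as they were. Putting MRVLDC3 in place of the row labelled MARVELD3 left the values of other genes as they were. For a range only its side of 1, and for a difference between genes only its sign, was judged, so their sizes could still change: without pool 3, CTNNB1 minus CTNNA1 was 0.0038 and CTNNB1 minus CDH1 0.067, against 0.10 and 0.23. With FPKM rescaled to an equal sum, 1 member was lowest in pool 1, against 2 as deposited (50.7% against 51.6% of expressed genes). With the median ratio over expressed genes (a mean of at least 1 FPKM), 1 was lowest in pool 1, 2 in pool 2 and 5 in pool 3, against 2, 4 and 2. Of expressed genes, 38.0%, 22.9% and 39.2% were then lowest in these pools, against 51.6%, 20.8% and 27.6%. With the whole epithelium markers, 3 were highest in pool 1 and 1 in pool 2, against 5 and 0, while the shares of expressed genes were 9.05% and 14.7%, against 24.8% and 23.1%. The count with a range above 1 was then 1, against 0 (10.97% against 7.06% of expressed genes), and the median coefficient of variation 9.58%, against 15.2% (19.1% against 13.5% for expressed genes). Leaving out 1 pool at a time, the members' coefficient as deposited lay between 9.71% (without pool 1) and 17.0% (without pool 2). With MRVLDC3 for the row labelled MARVELD3, an alternative chosen after seeing the data, OCLN minus that row was 0.72, against -0.56, and the members' median level 32.2 FPKM, against 38.7. Taking the mean of log2(FPKM + 1) over a list's members, turned back to FPKM, in place of the median moved 6 of 7 list levels. The other values that moved were levels of other lists and of the replaced row and the range of TJP3. The cause was not tested.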

Other observations

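Outside the lists and apart from MRVLDC3, only MARVELD1 and OCEL1 were looked up as genes with a MARVEL or occludin-like part. Both lay below the median of 12.7 FPKM over expressed genes. MARVELD1, a MARVEL-domain protein outside the tight junction group, was at 2.82, 4.65 and 5.94 FPKM in pools 1, 2 and 3, with pool 1 its lowest and pool 3 its highest. OCEL1, which shares a domain with the tail of occludin, was at 0.44, 0.32 and 0.37 FPKM. Over the 5 rows OCLN, MARVELD1, MARVELD2, MARVELD3 and MRVLDC3, the share of MRVLDC3 was 17.3%, 17.0% and 16.8% of the summed FPKM, the steadiest of the 5.

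The deposited read counts of junction rows did not follow their FPKM. CDH1 had counts of 1310, 1478 and 1265 in pools 1, 2 and 3, but CGN, at 76.71 FPKM in pool 1, had counts of 5, 3 and 4. TJP1 had counts of 7, 12 and 24.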
